A study of Mus musculus with 2 samples.

Results

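The genes described here are 35 DNA repair and damage checkpoint genes of the mouse, followed in bone marrow progenitors from which an active form of the homeobox factor Hoxa9 was withdrawn. They were chosen by symbol from a list of repair and checkpoint genes, and all 35 were found among the 23235 gene rows of the deposited table. Lineage-depleted marrow of C57B6 mice had been transduced with MIGR1 retroviruses for HA-tagged Hoxa9-ER, which fuses Hoxa9 to an estrogen receptor domain that answers to tamoxifen, and for Flag-tagged Meis1, a partner of Hoxa9. The cells of both groups grew in IL3 and were transformed in continuous 100 nM 4-hydroxytamoxifen (4OHT), which keeps the fusion in the nucleus. They were then washed 3 times and held for 72 h either in ethanol (EtOH), the solvent, in which nuclear Hoxa9-ER is lost, or in 100 nM 4OHT again. RNA sequencing gave 1 FPKM value (fragments scaled by transcript length and by library size) per gene and condition, each standing for 2 biological replicates, so no value below has a replicate error. The comparison of EtOH with 4OHT asks which genes change when Hoxa9 leaves the nucleus of transformed cells.

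Cells repair DNA by several routes. Homologous recombination copies an intact sister strand into a double-strand break, the Fanconi anaemia pathway unhooks crosslinks between strands, mismatch repair removes copying errors, and end joining reseals broken ends directly. The kinases Atm and Atr sense breaks and stalled forks and pass the signal to Chek2 and Chek1, which hold the cell cycle. In blood-forming tissue these pathways guard stem and progenitor cells, and loss of Fanconi anaemia genes leads to marrow failure.

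After 4OHT withdrawal 3 of the 35 genes fell and 0 rose. The genes that fell were Parp1, which encodes the main poly(ADP-ribose) polymerase that marks strand breaks, and Atm and Atr, the apical kinases of the damage checkpoint. Calls here are those of the authors' deposited table, made with Cuffdiff, at a q-value of at most 0.05, and "rose" and "fell" are used only of genes so called. All 35 genes were tested, and 8.57% were called. Of all 11865 rows tested, 22.5% were called, 10.5% lower and 12% higher in EtOH. Of the 8632 tested rows whose mean FPKM lay in the range of the 35 genes, 21% were called. The share of genes that fell among the 35 was therefore close to the background share, and the share that rose was below it. At an unadjusted p of at most 0.05, 4 of the 35 genes were lower and 2 were higher in EtOH, and 31.5% of all rows tested passed that limit.

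**Figure D1:**
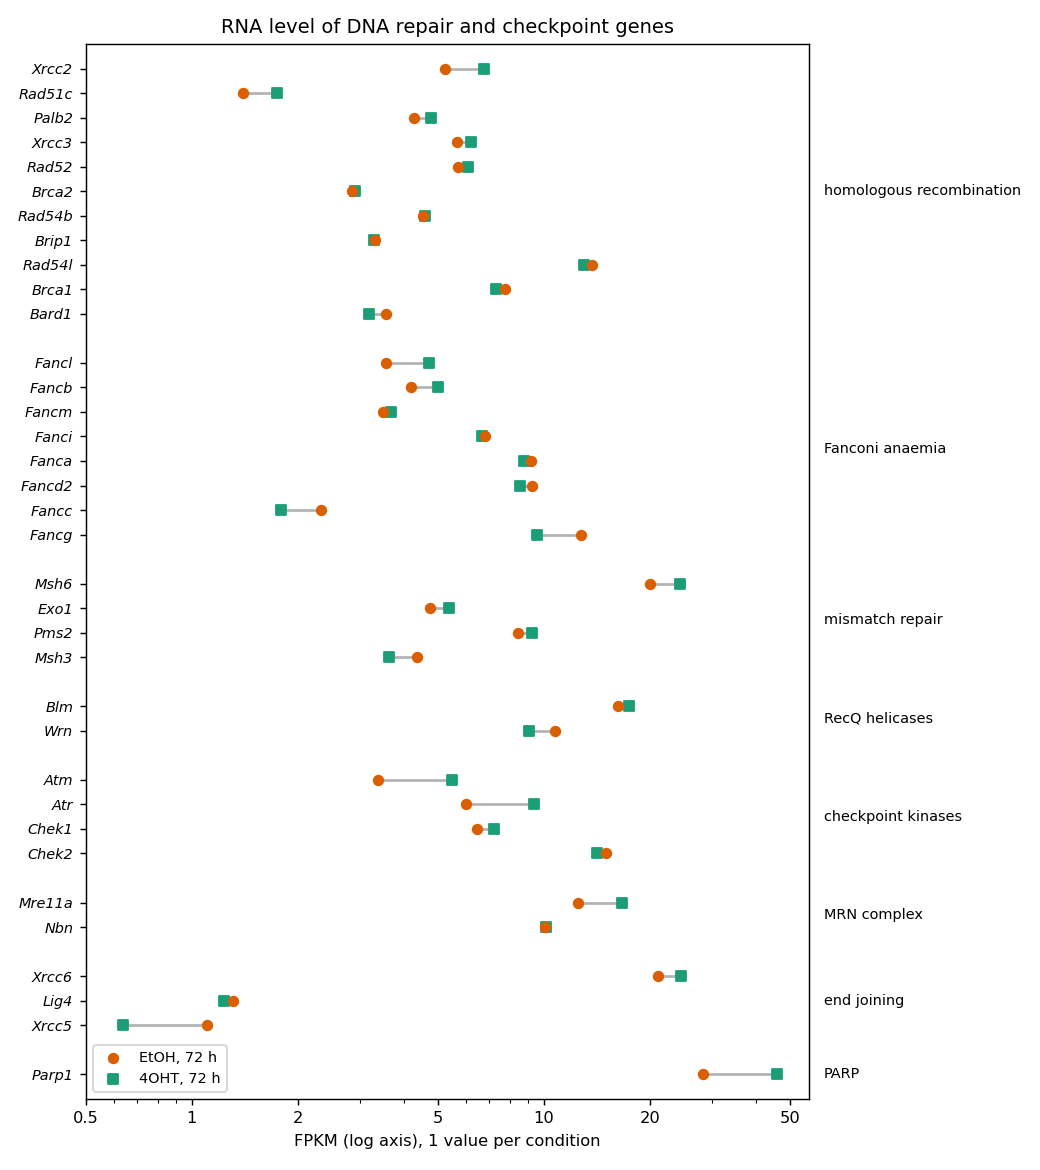
FPKM of each of the 35 genes in EtOH (circles) and 4OHT (squares) on a log axis, grouped by pathway, with 1 value per condition and a line joining the pair. Most pairs lie close together, and the widest gaps are those of Parp1, Atm, Atr and the barely expressed Xrcc5.

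Every change below is the log2 ratio of FPKM + 1 in EtOH to FPKM + 1 in 4OHT, positive where EtOH is higher. The added 1 understates the change of low genes. The median change of the 35 genes was -0.06, with quartiles of -0.20 and 0.07, and 14 genes had values above and 21 below zero. Over all 11022 genes that reached 1 FPKM in EtOH or in 4OHT the median was also -0.06, with quartiles of -0.25 and 0.18. The median size of the change, regardless of sign, was 0.14 for the 35 genes and 0.22 for all genes. On this scale 1 of the 35 genes, Parp1, changed at least 1.5-fold, or 2.86%, against 16.3% of all genes, 6.73% lower and 9.55% higher in EtOH. When the EtOH values were rescaled so that both conditions had equal FPKM sums, the split of the 35 genes moved to 6 above and 29 below zero, and the median of all genes shifted to -0.16. The sign of the small changes among the 35 genes thus depended on the scaling, and those of Parp1, Atm and Atr did not.

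Parp1 was the most abundant of the 35 RNAs in both conditions. It lies on chromosome 1 at 182499106 to 182531385 (mm9). Parp1 had 28.2 FPKM in EtOH, against 45.7 FPKM in 4OHT, and was 38.4% lower in EtOH (log2 change -0.68). Its q-value in the authors' deposited table was 1.61e-05. Atm, on chromosome 9 at 53245227 to 53344776 (mm9), had 3.37 FPKM in EtOH, against 5.47 FPKM in 4OHT. That was 38.4% lower in EtOH (log2 change -0.57), and the authors' deposited table gave it a q-value of 0.000226. Atr, on the same chromosome at 95755969 to 95852063 (mm9), had 6.02 FPKM in EtOH and 9.37 FPKM in 4OHT. It was 35.8% lower in EtOH, with a log2 change of -0.56, and the authors' deposited table gave it a q-value of 0.000658. The sizes of the 3 falls were close to each other, although the level of Parp1 in EtOH was far above those of both kinases. In the order of levels Atr moved to place 17 in EtOH, against place 10 in 4OHT, and Atm to place 29, against place 21. None of these 3 loci overlapped another row of at least 1 FPKM, and at most 0.567% of their 50-base words occur in transcripts of other genes.

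**Figure D2:**
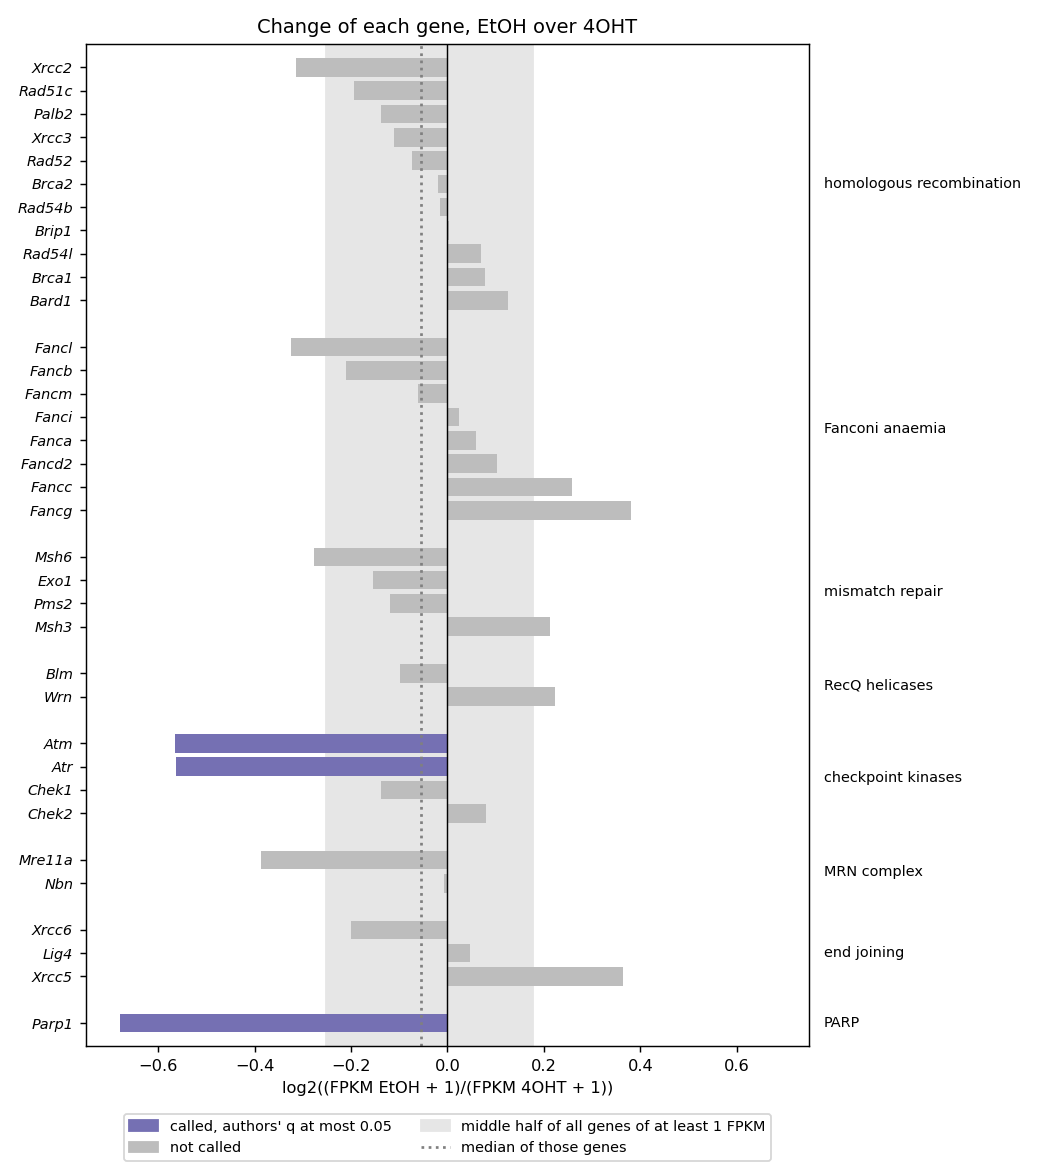
The log2 change of each gene, EtOH over 4OHT, as bars by pathway, with called genes in purple, the range between the quartiles of all genes of at least 1 FPKM shaded and their median dotted. Parp1 (-0.68), Atm (-0.57) and Atr (-0.56) reach furthest from zero, and most other bars stay inside the shaded band.

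The start regions of the 3 genes that fell are shown because they moved together, beside that of Chek1, the direct target kinase of Atr, whose RNA did not pass the test. Sequences are RefSeq windows on GRCm38.p6, from 250 bases before to 50 after the gene start, written 5′ to 3′ along the gene. Capitals mark every match, on either strand, to the GC box (GGGCGG), the CCAAT box (CCAAT), the E2F words TTCCCGC and TTGGCGC, the E-box bound by Myc and Max (CACGTG), the NRF1 motif, the CHR element (TTTGAA), a Hox and Pbx word (TGATNNAT) and a Meis word (TGACAG).
Parp1, chr1:180568641-180568940, plus strand: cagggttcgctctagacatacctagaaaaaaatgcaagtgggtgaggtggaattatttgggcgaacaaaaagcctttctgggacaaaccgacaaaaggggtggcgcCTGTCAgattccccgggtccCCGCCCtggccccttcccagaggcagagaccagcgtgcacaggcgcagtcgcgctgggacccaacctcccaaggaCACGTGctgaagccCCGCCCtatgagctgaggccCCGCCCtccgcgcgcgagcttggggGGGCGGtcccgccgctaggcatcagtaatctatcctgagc
Atm, chr9:53536622-53536921, minus strand: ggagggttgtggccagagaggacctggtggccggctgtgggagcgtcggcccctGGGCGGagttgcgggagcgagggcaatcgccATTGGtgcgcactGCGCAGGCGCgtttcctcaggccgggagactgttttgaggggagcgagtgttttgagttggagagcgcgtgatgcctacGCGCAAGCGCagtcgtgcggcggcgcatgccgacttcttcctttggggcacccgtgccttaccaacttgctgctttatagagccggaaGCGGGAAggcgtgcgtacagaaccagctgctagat
Atr, chr9:95857347-95857646, plus strand: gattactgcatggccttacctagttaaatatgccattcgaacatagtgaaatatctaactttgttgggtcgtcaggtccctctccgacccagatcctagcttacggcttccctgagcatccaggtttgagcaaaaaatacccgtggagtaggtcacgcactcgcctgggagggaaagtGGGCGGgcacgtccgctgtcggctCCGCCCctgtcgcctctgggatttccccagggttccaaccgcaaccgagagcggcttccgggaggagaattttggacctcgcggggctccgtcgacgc
Chek1, chr9:36726609-36726908, minus strand: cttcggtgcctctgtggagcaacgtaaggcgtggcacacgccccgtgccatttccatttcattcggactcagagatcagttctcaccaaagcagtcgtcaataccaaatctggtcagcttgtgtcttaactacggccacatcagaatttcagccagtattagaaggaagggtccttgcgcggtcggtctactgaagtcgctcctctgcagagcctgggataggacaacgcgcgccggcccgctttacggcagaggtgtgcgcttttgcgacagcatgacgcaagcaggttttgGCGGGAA

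The Parp1 window held 4 GC boxes, 1 E-box and 1 Meis word. The Atm window held 1 GC box, 1 CCAAT box, 1 TTCCCGC word and 2 NRF1 words. The Atr window held 2 GC boxes, and the Chek1 window held 1 TTCCCGC word. No marked matches overlapped each other in these windows. The GC box was the one motif of the search that Parp1, Atm and Atr shared, and it stood in 21 of the 29 genes with a window, or 72.4%, and in 69.5% of 7856 genes of at least 1 FPKM with a window. The shares of the GC box in both sets of genes were thus similar.

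E2F factors drive genes of the G1 to S transition. At least 1 of the E2F words TTCCCGC and TTGGCGC stood in the windows of 16 of the 29 genes, or 55.2%. The share was 14.5% among the 7856 genes of at least 1 FPKM with a window and 7.79% among all 27025 genes with a window. Parp1 and Atr were among the 13 genes without either word. The 32 windows of the 29 genes had a median G and C content of 60.2%, against 60.7% over 9988 windows of genes of at least 1 FPKM and 52.7% over all 32851 windows. The median log2 change was -0.07 in the 16 genes with an E2F word, 1 of them called, and -0.10 in the 13 genes without, 2 of them called. The Hox and Pbx word stood in 0 of the 29 genes and in 4.48% of the expressed genes. No window was matched for Fancd2, Exo1, Xrcc2, Nbn, Wrn and Rad54b. A match is only a run of letters, and nothing about binding follows from it.

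The kinases downstream of Atm and Atr did not pass. Chek2, the target of Atm, had 14.95 FPKM in EtOH and 14.1 FPKM in 4OHT (log2 change 0.08). Chek1, the target of Atr, had 6.46 FPKM in EtOH and 7.21 FPKM in 4OHT (log2 change -0.14). Their q-values in the authors' deposited table were 0.825 and 0.662. Chek1, Mre11a, Atm and Atr all lie on chromosome 9, at least 16.7 Mb apart. Whether Atm and Atr changed more than Chek1 and Chek2 was not tested.

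Mre11a encodes the nuclease of the Mre11, Rad50 and Nbn complex, which binds broken ends and recruits Atm. It had 12.5 FPKM in EtOH and 16.7 FPKM in 4OHT, a log2 change of -0.39. It missed the threshold, as the authors' deposited table gave it a q-value of 0.0601, and came nearest to it of the genes not called. Nbn, the subunit that contacts Atm, had 10.08 FPKM in EtOH and 10.14 FPKM in 4OHT. The level of Mre11a was 1.24 times that of Nbn in EtOH and 1.64 times in 4OHT.

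Of the 11 genes of homologous recombination 0 passed, and 0 did so at an unadjusted p of at most 0.05. Over all rows tested 22.5% were called and 31.5% passed the unadjusted limit, and a list this short can hold few calls. Their log2 changes ran from -0.31 to 0.13, with a median of -0.02. Brca1, which starts break processing with its partner Bard1, had 7.75 FPKM in EtOH and 7.28 FPKM in 4OHT (log2 change 0.08). Bard1 had 3.56 FPKM in EtOH and 3.18 FPKM in 4OHT (0.13). The level of Brca1 was 2.17 times that of Bard1 in EtOH and 2.29 times in 4OHT, so that the pair kept nearly the same ratio. Brca2, which loads the recombinase onto single strands, had 2.86 FPKM in EtOH and 2.91 FPKM in 4OHT. Palb2, the bridge between Brca1 and Brca2, had 4.27 FPKM in EtOH and 4.79 FPKM in 4OHT. Brip1, a helicase that binds Brca1, had 3.302 FPKM in EtOH and 3.296 FPKM in 4OHT, the smallest difference of the 35 on the log2 scale.

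The paralogues of the recombinase all had lower values in EtOH, but none passed. Xrcc2 had 5.23 FPKM in EtOH and 6.74 FPKM in 4OHT, which at -0.31 was the widest log2 change of the recombination genes. Its q-value in the authors' deposited table was 0.218. Rad51c had 1.398 FPKM in EtOH and 1.74 FPKM in 4OHT (-0.19), and Xrcc3 had 5.68 FPKM in EtOH and 6.21 FPKM in 4OHT (-0.11). Rad52, which anneals single strands, had 5.72 FPKM in EtOH and 6.07 FPKM in 4OHT. The motor proteins that help the recombinase invade differed in level. Rad54l stood at 13.7 FPKM in EtOH and 13.02 FPKM in 4OHT, the highest of the recombination genes in both conditions. Rad54b stood at 4.53 FPKM in EtOH and 4.59 FPKM in 4OHT, and 34.5% of its 50-base words are shared with transcripts of other genes, while its locus overlaps Fsbp, so its own level is uncertain.

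The Fanconi anaemia genes also gave 0 calls of 8, with 1 gene, Fancg, at an unadjusted p of at most 0.05. Those limits were passed by 22.5% and 31.5% of all rows tested. Their median log2 change was 0.04. Fancg, a subunit of the core complex, had 12.8 FPKM in EtOH and 9.58 FPKM in 4OHT, a log2 change of 0.38. That was the largest positive value of the 35 genes on this scale, and its q-value in the authors' deposited table was 0.0866. Without the added 1, the ratio of EtOH to 4OHT was higher for Xrcc5, at 1.74, than for Fancg, at 1.33. Fancc, another core subunit, had 2.33 FPKM in EtOH and 1.79 FPKM in 4OHT (0.26). Fancl, the ubiquitin ligase of the core complex, had 3.57 FPKM in EtOH and 4.72 FPKM in 4OHT (-0.32). Fancb, which works beside it, had 4.18 FPKM in EtOH and 4.99 FPKM in 4OHT (-0.21). Core subunits thus had values on both sides of zero, and the locus of Fancl overlaps that of Vrk2. Fanca had 9.17 FPKM in EtOH and 8.77 FPKM in 4OHT, and the translocase gene Fancm had 3.48 FPKM in EtOH and 3.68 FPKM in 4OHT. The clamp that the ligase modifies is formed by Fancd2, at 9.25 FPKM in EtOH and 8.55 FPKM in 4OHT, and Fanci, at 6.82 FPKM in EtOH and 6.69 FPKM in 4OHT. Fanci stood at 0.737 of the Fancd2 level in EtOH and at 0.782 in 4OHT.

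Mismatch repair gave 0 calls of 4, also at an unadjusted p of at most 0.05. With 22.5% of all rows tested called and 31.5% at that p, few calls could fall in lists as short as this and the next. Msh6, part of the sensor of single mismatches, was abundant, with 19.97 FPKM in EtOH and 24.4 FPKM in 4OHT (log2 change -0.28). Msh3, part of the sensor of larger loops, had 4.37 FPKM in EtOH and 3.63 FPKM in 4OHT (0.21). Pms2, which nicks the faulty strand, had 8.43 FPKM in EtOH and 9.24 FPKM in 4OHT (-0.12), and the exonuclease gene Exo1 had 4.74 FPKM in EtOH and 5.39 FPKM in 4OHT (-0.16). The next list is that of the RecQ helicases, which dissolve joint molecules. Blm had 16.3 FPKM in EtOH and 17.5 FPKM in 4OHT, and Wrn had 10.8 FPKM in EtOH and 9.08 FPKM in 4OHT. Of these 2 genes 0 were called and 0 had an unadjusted p of at most 0.05.

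The end joining genes did not pass, with 0 of 3 called and 1, Xrcc5, at an unadjusted p of at most 0.05. Of all rows tested 22.5% and 31.5% passed these limits. Xrcc6, which encodes the Ku70 subunit that caps broken ends, was the second most abundant of the 35 RNAs, at 21.1 FPKM in EtOH and 24.4 FPKM in 4OHT (log2 change -0.20). Xrcc5, which encodes its obligate partner Ku80, was the least abundant in both conditions, at 1.108 FPKM in EtOH and 0.637 FPKM in 4OHT (0.36), and the authors' deposited table gave it a q-value of 0.104. The FPKM of Xrcc6 was 19.1 times that of Xrcc5 in EtOH and 38.3 times in 4OHT. No 50-base word of Xrcc5 or Xrcc6 was shared with another gene, and no row of at least 1 FPKM overlaps the Xrcc5 locus. Lig4, the ligase that reseals the ends, had 1.31 FPKM in EtOH and 1.23 FPKM in 4OHT. Of these 3 genes, Xrcc6 was thus abundant per length, and Xrcc5 and Lig4 were scarce. Of 8 other end joining genes, the 7 that reached 1 FPKM lay between them, such as Xrcc4 at 7.22 FPKM in EtOH and 7.08 FPKM in 4OHT. Xrcc5 was the only one of the 35 genes under 1 FPKM in a condition, and passed the 1 FPKM filter through its EtOH value. Without it the median log2 change of the other 34 genes was -0.07.

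Many of the 35 genes share their start region with a neighbour read in the opposite direction. GENCODE M21 gave the starts, strands and types of genes for this count, and no levels. In it 14 of the 35, or 40%, had a protein-coding gene on the other strand starting within 1000 bases. Among 9498 protein-coding genes of at least 1 FPKM the share was 17.6%. The neighbour of Atm is Npat, a coactivator of histone genes, whose start lies 307 bases away. Npat had 6.69 FPKM in EtOH and 8.03 FPKM in 4OHT (log2 change -0.23) and did not pass, and the authors' deposited table gave it a q-value of 0.277. Of the 13 neighbours tested, Tex14 beside Rad51c being the one that was not, 2 were called, or 15.4%, against 22.5% of all rows tested, and the repair gene beside each was not called. Pomgnt1, a glycosyltransferase gene 150 bases from the start of Rad54l, fell to 7.28 FPKM in EtOH, against 12.8 FPKM in 4OHT (-0.74). Mospd2, 217 bases from the start of Fancb, rose to 13.5 FPKM in EtOH, against 9.59 FPKM in 4OHT (0.45). Whether the change of either neighbour differed from that of its repair gene was not tested. Mre11a and Ankrd49 overlap at their starts. The loci of Msh3, Xrcc3, Rad54l, Rad54b, Fanca, Fancl, Fanci and Msh6 overlap another row of at least 1 FPKM, and the strand setting of the counting is not given in the sources used here, so their reads could not be told apart with certainty.

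**Figure D3:**
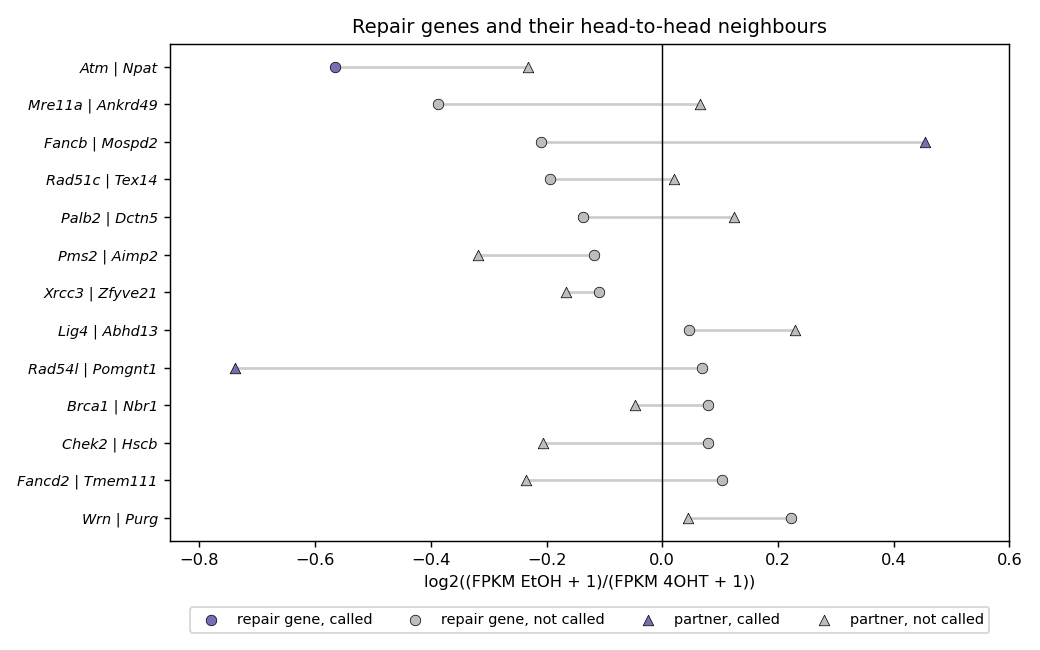
Log2 change, EtOH over 4OHT, of 13 of the 14 repair genes (circles) and of the protein-coding neighbour starting within 1000 bases on the other strand (triangles), with called genes in purple. Atm lies at -0.57 with Npat at -0.23, and the called neighbours Pomgnt1 (-0.74) and Mospd2 (0.45) lie apart from Rad54l (0.07) and Fancb (-0.21).

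A further 133 genes of the same and neighbouring repair pathways were read beside the 35. Of 131 tested, 5 fell, 4 rose and 122 did not pass, so 6.87% were called, against 22.5% of all rows tested. Their median log2 change was -0.10. Rad17, which loads the checkpoint clamp on which Atr depends, had the largest fall of these 133 genes. It fell to 17.7 FPKM in EtOH, against 37.3 FPKM in 4OHT (-1.03), and was 1 of 21 genes called in the list of other checkpoint and damage signalling genes. Atrip, the partner that Atr needs, did not pass, at 7.14 FPKM in EtOH and 9.61 FPKM in 4OHT (-0.38). Nor did Rad50, the partner of Mre11a, at 9.94 FPKM in EtOH and 12.4 FPKM in 4OHT (-0.30). Atrip and Rad50 were named after their values were seen.

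Base excision and single-strand break repair, the route in which Parp1 works, had 5 of 20 tested genes called, with 3 that rose and 2 that fell. That share of 25% was close to the 22.5% of all rows tested. Neil3, a glycosylase gene, rose to 19.3 FPKM in EtOH, against 9.86 FPKM in 4OHT (0.90). Apex1, the endonuclease that cuts at sites without a base, fell to 30.4 FPKM in EtOH, against 51.5 FPKM in 4OHT (-0.74), and its locus overlaps Tmem55b, at 14.8 FPKM in EtOH and 20.4 FPKM in 4OHT. Mbd4 rose and Fen1 fell. Parp2, the closest relative of Parp1 in this route, did not pass, at 21.9 FPKM in EtOH and 24.8 FPKM in 4OHT. Mbd4, Fen1 and Parp2 were named after their values were seen. The level of Parp1 was 1.29 times that of Parp2 in EtOH and 1.85 times in 4OHT.

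In the list of other mismatch repair genes 2 of 14 fell, or 14.3%, near the 10.5% of all rows tested that were called lower. Among the 2 was Pold2, a subunit of the replicative polymerase, which fell to 30.3 FPKM in EtOH, against 42.2 FPKM in 4OHT (-0.46). Of 24 other homologous recombination genes 1 rose, or 4.17%, against 12% of all rows tested that were called higher. The gene that rose was Shfm1, a small protein that binds Brca2 and is also part of the proteasome. It had 566 FPKM in EtOH, against 382 FPKM in 4OHT (0.57). The lists of other Fanconi anaemia genes, other RecQ helicases, other end joining genes, nucleotide excision repair, and translesion synthesis and direct reversal had 0 called of 9, 3, 7, 20 and 13 tested. At an unadjusted p of at most 0.05 they held 1, 0, 2, 2 and 2 genes, while 31.5% of all rows tested passed that limit.

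**Figure D4:**
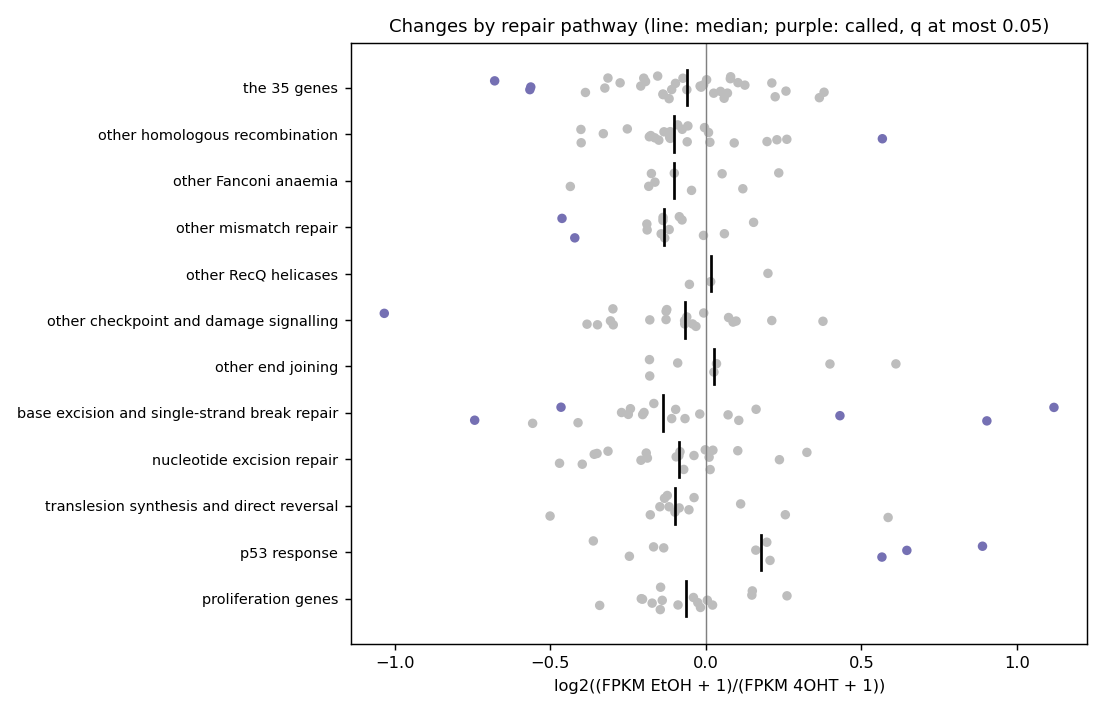
Log2 change, EtOH over 4OHT, of each gene of at least 1 FPKM in the 35 genes, in 9 lists of other repair genes, in a p53 response list and in a proliferation list, with list medians as lines and called genes in purple. The medians of the repair lists lie between -0.14 and 0.03, and called genes lie on both sides of zero.

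Repair genes are read most in dividing cells, so proliferation genes are given beside them. Of 16 proliferation genes 0 were called and 1 had an unadjusted p of at most 0.05, against 22.5% and 31.5% of all rows tested. Their median log2 change was -0.06, and their FPKM summed to 984 in EtOH and 1042 in 4OHT. Genes of maturing granulocytes moved with the same comparison. All 6 on that list rose, and their summed FPKM was 16226 in EtOH and 125 in 4OHT. In bulk RNA fewer cells of a type and less RNA per cell cannot be told apart, and the part of the granulocyte genes in the falls of Parp1, Atm and Atr was not tested.

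The labelled cell type was checked against its markers. All 8 progenitor markers were present, between 10.1 and 918 FPKM in EtOH and between 7.39 and 186 FPKM in 4OHT, although 4 rose, led by Mpo, and 2, Cd34 and Cd48, fell. The T cell markers Cd3e, Cd3g and Cd4 and the B cell markers Ms4a1, Pax5 and Ebf1 were listed at 0 in both conditions. Lck, a kinase gene on the T cell list, fell to 1.51 FPKM in EtOH, against 3.55 FPKM in 4OHT, and made up most of that list's sum. The summed T cell list had 1.60 FPKM in EtOH and 3.67 FPKM in 4OHT, and the B cell list 1.72 FPKM in EtOH and 1.13 FPKM in 4OHT. The stromal and endothelial list summed to 1.94 FPKM in EtOH and 8.02 FPKM in 4OHT, the 3 matched erythroid genes to 2.33 FPKM in EtOH and 4.64 FPKM in 4OHT, and the megakaryocyte list to 91.4 FPKM in EtOH and 102 FPKM in 4OHT. On these lists Pdgfrb and Pf4 were among the genes that fell, and Klf1 rose. RNA of Hoxa9, Meis1 and Esr1, which the retroviruses can also supply, rose, between 418 and 892 FPKM in EtOH and between 242 and 476 FPKM in 4OHT. RNA does not show where the fusion protein is, so these values do not check the labels.

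Across the 35 genes the order of levels was nearly the same in both conditions, with a Spearman rho of 0.97, as a description over genes of the same samples. Between the change and locus length rho was 0.20 over the 35 genes, and between the change and mean FPKM -0.20, with no test made. Over the 11022 genes of at least 1 FPKM the values were -0.003 and -0.008. These are values across genes, which are not independent replicates.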

How the data were processed

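RNA was sequenced from 2 biological replicates each of EtOH and 4OHT. Per the labels' protocols, TruSeq libraries were made from column-purified, DNase-treated RNA. Bowtie2 2.0.0.7, Cuffdiff 2.0.2, CASAVA 1.8.2 and the mm9 build are named in the submitters' processing notes. Annotation, strand setting and scaling were not given in the sources used here. Per the file headers, the authors deposited 1 FPKM value per gene and condition, with p-values and q-values for the contrast. The deposited q-values matched Benjamini-Hochberg values computed from p over the 11865 tested rows to within 1.7e-06. How the 2 replicates entered that test is not known here, so what spread its p-values measure is not known either.

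Log2 changes were computed with a pseudocount of 1, and lists were summarised over genes reaching 1 FPKM in EtOH or 4OHT. With 1 value per condition no test of this work was possible. Read totals are unknown, so no counting interval is given. Among 2474 genes under 0.3 FPKM in both conditions, 300 had log2 ratios between 0.05 and 0.2, against 127 in the next fullest bin of that width, so 1 fragment may be worth about 1.09 times as much FPKM in EtOH. FPKM is relative to the library, so abundant RNAs that rise lower the values of others.

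The members, lists and motifs were chosen with earlier results of these data known. All 35 genes are named, with up to 3 called genes of largest change per other list, and some results that this rule would name are not reported here. A RefSeq table (GRCm38.p6, names only) linked older symbols. All 133 other repair genes were matched, while the erythroid markers Hba-a1 and Hbb-b1 were not. Promoter windows were found for 29 of 35 genes, and shared 50-base words came from GENCODE M21 transcripts. Loci are mm9, with starts counted from 1. Alternatives changed the q-value limit, a fold limit, the pseudocount, the filter and the scaling. The steps were tested on simulated data. Python 3.11.15, pandas 2.3.3, numpy 2.4.6 and scipy 1.17.1 were used.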

Additional observations from a re-analysis of the deposited data

How the results depend on the processing

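Parp1, Atm and Atr were the genes called, all lower in EtOH, by the authors' deposited table at a limit of 0.05 or of 0.01 on q, with a ratio of at least 1.5 added, and with the adjustment made over tested rows of at least 1 FPKM. Their log2 changes stayed negative under 2 other pseudocounts, 2 other filters and 2 scalings. For Atm the size depended on the pseudocount, with -0.68 at 0.1 and -0.32 at 5. The count of the 35 genes at least 1.5-fold changed on the log2(FPKM + pseudocount) scale was 1 as reported. It was 4 with a pseudocount of 0.1, where Atm, Atr and Xrcc5 joined Parp1, and 3 with both conditions brought to equal FPKM sums, where Atm and Atr joined. The share over all genes, 16.3%, was computed for the reported setting only, so these other counts have no background share beside them. The median log2 change of the 35 genes lay between -0.15 and -0.01 over all settings. Of the 133 other repair genes 9 were called. With a ratio of at least 1.5 the count was 4, with 2 lower and 2 higher. At q-values of at most 0.01 the count lower in EtOH was 3. A stricter limit can only remove calls. No paired analysis was possible because each condition has 1 value for its 2 replicates, and no replicate could be left out. Depth is unknown, so for genes near 1 FPKM, such as Xrcc5, Lig4 and Rad51c, how small a difference could be detected is not known.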

Other observations

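Among 10 genes of the p53 response, a set of damage-induced genes outside the repair pathways, 3 rose, 0 fell and 7 did not pass in the authors' deposited table, where 1 gene, Trp53, was lower at an unadjusted p of at most 0.05. Pmaip1, a death gene of the Bcl2 family, rose to 33.0 FPKM in EtOH, against 17.4 FPKM in 4OHT (log2 change 0.89). Cdkn1a, the p21 inhibitor of cyclin-dependent kinases, rose to 99.5 FPKM in EtOH, against 63.2 FPKM in 4OHT (0.65). Gadd45a rose to 61.6 FPKM in EtOH, against 41.3 FPKM in 4OHT (0.57), and its locus overlaps E230016M11Rik. Trp53 itself, named after its values were seen, did not pass, at 50.5 FPKM in EtOH and 65.1 FPKM in 4OHT (-0.36). With 10 genes, 3 calls are a share of 30%, near the 22.5% of all rows tested that were called; 12% of all rows tested were called higher in EtOH. The median log2 change of the 10 genes was 0.18, beside -0.06 over all genes of at least 1 FPKM.

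Nhej1, an end joining factor outside the 35 genes, had 6.15 FPKM in EtOH and 3.68 FPKM in 4OHT (log2 change 0.61) and did not pass. Cdc25a, the phosphatase that Chek1 restrains, had 20.7 FPKM in EtOH and 15.7 FPKM in 4OHT (0.38) and did not pass either. Both were named after their values were seen.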
